A study of Mus musculus with 15 samples.

Results

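The genes described here make, sense, move and dispose of cholesterol. They were chosen by name, as 34 symbols from the pathway, and all 34 stood among the 21878 gene rows of the deposited tables. By role they comprise 18 enzymes of sterol synthesis, 5 genes of the SREBP sensor, 5 genes of the liver X receptors and their targets, and 6 genes of efflux, storage, turnover and transport. Each passed the filter on low values, at least 1 FPKM in at least 3 libraries. FPKM scales fragments to gene length and to library depth, so levels of different genes can be compared per length. The least covered member was Nr1h3, with 35 to 79 reads per library, and the most covered was Lrp1, with 10677 to 14886.

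RNA-seq was carried out on prefrontal forebrain cortex of presenilin knockout and wild-type mice, to see what long intake of nicotine does in each. The knockout (DKO, labelled PS1/PS2 DKO) is conditional, and the labels give neither the driver of the deletion nor the cells it reaches. Wild-type mice (WT) are labelled C57BL6/J. From 8 months of age the mice drank plain water, or nicotine at 100 µg/ml in it, over 3 months, and tissue was taken after behavioural testing. Each treatment had 4 WT libraries, and the DKO had 4 on water and 3 on nicotine. The labels do not give sex and do not say that each library came from a separate mouse, so the spread behind each p-value is that among these libraries and may be technical.

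Brain cholesterol is made almost wholly within the brain, because plasma lipoproteins do not cross the blood-brain barrier, and much of it lies in myelin. The SREBP transcription factors are carried by Scap to be cleaved when sterol is low and are held back by the Insig proteins when it is high, and their targets include the enzymes of synthesis. The liver X receptors respond to oxysterols and switch on genes that load cholesterol onto lipoproteins, while Cyp46a1 turns cholesterol into 24S-hydroxycholesterol, the main form in which neurons export it.

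Promoter sequences were read from RefSeq (GRCm38.p6) as windows from 250 bases before to 50 bases after each annotated start. They were found for 28 of the 34 members, in 37 windows. Upstream bases of 4 members are shown because they stand for the patterns described below. Hmgcs1 and Insig1 are classic SREBP targets whose level differed between genotypes in nicotine, and Abca1 and Mylip are liver X receptor targets with the largest differences. The stretches are chr13:119690101-119690350 (plus strand), chr5:28071162-28071411 (plus strand), chr4:53159989-53160145 (minus strand) and chr13:45389492-45389741 (plus strand). They are written 5′ to 3′ along the gene and hold only bases outside the annotated gene span, which leaves 157 bases for Abca1. Capitals mark matches, on either strand, to the sterol regulatory element TCACNCCAC, the CCAAT box and the GC box GGGCGG.
Hmgcs1: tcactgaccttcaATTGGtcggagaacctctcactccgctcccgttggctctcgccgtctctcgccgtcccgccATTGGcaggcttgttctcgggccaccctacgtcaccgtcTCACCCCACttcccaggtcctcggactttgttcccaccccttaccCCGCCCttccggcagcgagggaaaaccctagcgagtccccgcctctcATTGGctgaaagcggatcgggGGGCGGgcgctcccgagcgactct
Insig1: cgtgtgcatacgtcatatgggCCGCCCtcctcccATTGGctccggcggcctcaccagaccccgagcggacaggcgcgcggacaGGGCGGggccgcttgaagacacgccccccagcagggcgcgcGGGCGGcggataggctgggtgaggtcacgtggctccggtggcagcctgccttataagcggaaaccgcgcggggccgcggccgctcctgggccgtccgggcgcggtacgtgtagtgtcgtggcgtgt
Abca1: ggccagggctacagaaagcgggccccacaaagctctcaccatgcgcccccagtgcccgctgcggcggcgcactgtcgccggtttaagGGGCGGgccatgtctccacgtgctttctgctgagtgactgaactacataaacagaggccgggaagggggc
Mylip: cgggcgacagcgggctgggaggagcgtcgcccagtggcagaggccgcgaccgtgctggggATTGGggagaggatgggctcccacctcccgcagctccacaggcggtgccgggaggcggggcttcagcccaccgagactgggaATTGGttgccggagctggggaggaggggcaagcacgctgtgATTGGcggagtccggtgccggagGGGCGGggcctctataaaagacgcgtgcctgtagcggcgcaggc

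Hmgcs1 was the only member whose windows held the sterol regulatory element without a mismatch, as TCACCCCAC from 137 to 129 bases before the start, beside 3 CCAAT boxes and 2 GC boxes. That element was in 1.24% of all 32851 RefSeq windows of this length. Allowing 1 mismatch, a search added after seeing the data, it was in 13 of 37 member windows (35.1%), from 12 genes, and in 24.2% of all windows. CCAAT was in 62.2% of member windows and 37.4% of all windows, and GGGCGG in 75.7% and 35.7%. The liver X receptor response repeat was in 0 of the 37 member windows and in 0.0883% of all windows, so the windows shown for Abca1 and Mylip hold no match to it. These matches describe the letters only. Windows of the same gene can overlap.

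The libraries held 16334904 to 19469215 reads in genes. Psen2, a targeted gene that encodes a catalytic subunit of gamma-secretase, was at 5.44 to 7.14 FPKM in the 8 WT libraries and at 1.29 to 1.76 in the 7 DKO libraries. Markers of other cells moved with genotype. The summed level of 10 microglial markers was 154 to 174 FPKM in WT and 491 to 608 in DKO libraries, and that of 10 astrocyte markers 536 to 674 and 980 to 1085. Markers of excitatory neurons, which cortex should hold, were present in every library, and the sum of 8 of them was 1495 to 1585 in WT and 1173 to 1328 in DKO. The sum of 10 oligodendrocyte markers was 937 to 1055 in WT and 951 to 1299.9 in DKO. Of these 4 lists no marker was at 0 in any library. In bulk tissue a change in the number of cells of a type and a change in RNA per cell cannot be told apart. The sum of 4 Y-linked genes was 28.9 to 33.0 FPKM in WT water, 0.0909 to 0.144 in WT nicotine, 24.3 to 33.0 in DKO water and 35.9, 0.233 and 36.6 in DKO nicotine. Nicotine and the Y-linked level therefore cannot be told apart in the WT mice, and all 4 Y-linked genes were called higher in DKO than in WT on nicotine. The comparison of DKO with WT on nicotine rests on the same WT nicotine libraries, so the Y-linked level is mixed into it. The same holds for the test of whether nicotine acted differently in the genotypes. The part of these differences in the results below was not tested, and the leave-one-out values given do not separate it.

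In WT water libraries the members covered a wide range of levels per length. Hmgcs1, the synthase that makes HMG-CoA for the mevalonate pathway, was highest at 96.4 ± 3.63 FPKM (SD, n = 4), followed by the neuronal cholesterol 24-hydroxylase Cyp46a1 at 78.3 ± 2.29 FPKM (SD, n = 4) and the transcription factor Srebf2 at 49.99 ± 1.08 FPKM (SD, n = 4). The endocytic lipoprotein receptor Lrp1 (mean 44.9 FPKM) and the sterol C4-methyl oxidase Msmo1 (mean 41.1) came next. The lowest were the cholesterol-esterifying enzyme Soat1 at 4.13 ± 0.208 FPKM (SD, n = 4) and Nr1h3, the liver X receptor alpha, at 0.999 ± 0.123 FPKM (SD, n = 4). Of the 33 gaps between neighbours in this order, 15 were within the larger SD of the pair, among them Acat2, Fdft1 and Pmvk (means of 17.7 FPKM each) and Insig1 and Fdps (32.8 and 32.3).

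**Figure D1:**
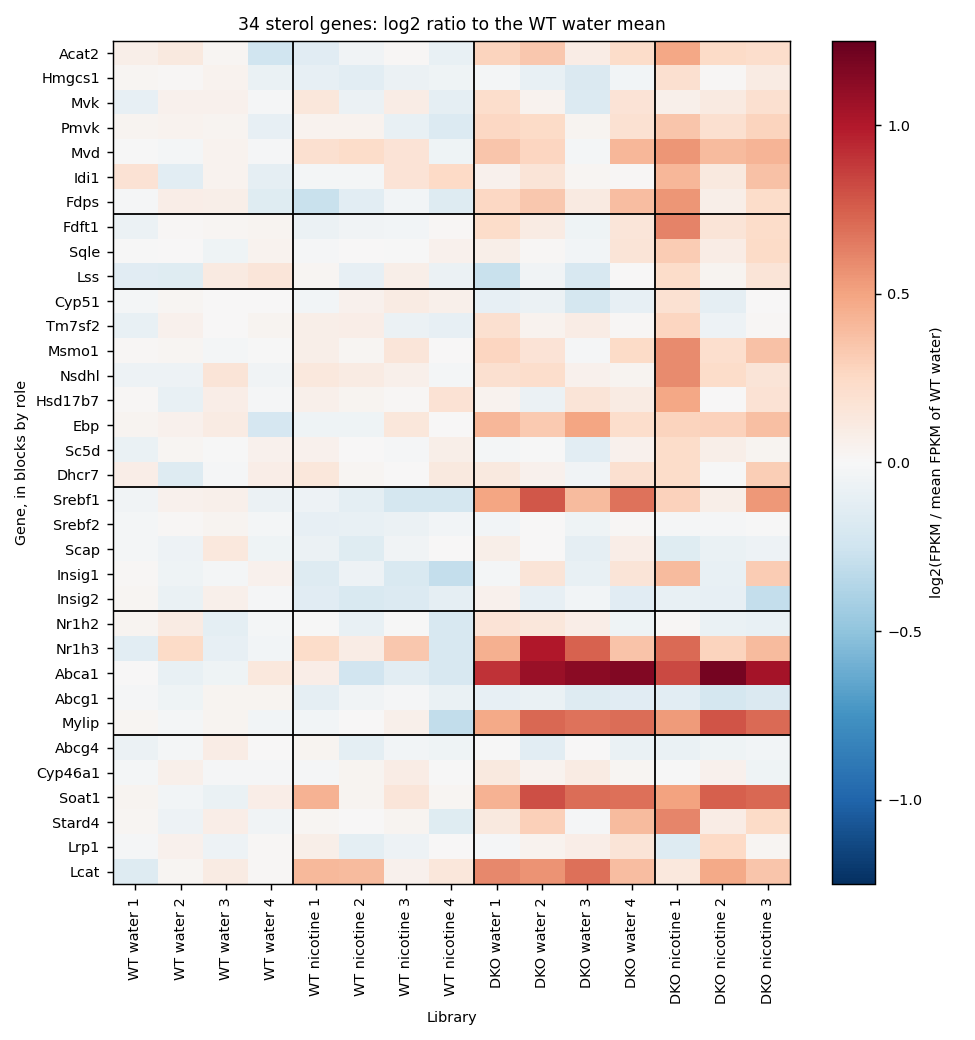
Level of each of the 34 members (rows, in blocks by role) in each of the 15 libraries (columns, by group), as the log2 ratio of FPKM to the mean FPKM of the WT water libraries. Abca1, Mylip, Srebf1 and Soat1 are higher in the DKO libraries of both treatments, and DKO nicotine replicate 1 is the highest library for 15 of the 18 enzymes.

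The comparison of DKO with WT mice on water asks how the pathway stands in the knockout cortex without nicotine. Genes were called by limma on log2(FPKM + 1) where the p, adjusted by Benjamini-Hochberg over 12728 genes, was under 0.05, on a scale that understates the change of low genes. In the DKO cortex 11 members rose, 1 fell and 22 did not pass the test. Of all tested genes 25.5% were called higher and 12.4% lower, 38.0% in either direction, so the share of members called (35.3%) was near the background. Between the groups 10 members had no overlap, against 36.5% of all tested genes. The median log2 difference was 0.08 over the members and 0.05 over all tested genes. The 6 largest log2 differences were outside the synthesis chain: the cholesterol exporter Abca1, the receptor-degrading ubiquitin ligase Mylip, the transcription factor Srebf1, the esterifying enzymes Soat1 and Lcat, and Nr1h3 rose by 0.36 to 0.93.

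The same comparison was made among mice that drank nicotine, where the Y-linked level also differed between the genotypes, as given above. Here 16 members rose, 1 fell and 17 did not pass the test, against a background of 24.6% called higher and 11.0% called lower, 35.7% in either direction. The share of members called was 50.0%. Groups did not overlap for 17 members, against 37.7% of all tested genes, and the median log2 difference was 0.18 over the members and 0.06 over all tested genes. The members called in both genotype comparisons were 10 in number, Abca1, Abcg1, Acat2, Ebp, Fdps, Mvd, Mylip, Pmvk, Soat1 and Srebf1. Lcat and Nr1h3 were called in water alone, and Fdft1, Hmgcs1, Insig1, Msmo1, Nsdhl, Sqle and Stard4 in nicotine alone. None of these differences between the comparisons passed the interaction test described below, where values are printed for only some of these members.

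The split between higher and lower calls depended on how libraries were scaled. With a median-of-ratios rescaling the genotype differences moved by 0.06 (water) and 0.07 (nicotine) on the log2 scale. All tested genes then gave 2322 higher and 2517 lower calls in water in place of 3252 and 1584, and 2001 and 2413 in nicotine in place of 3133 and 1405. Members gave 7 higher and 3 lower in water (background 18.2% and 19.8%) and 12 higher and 2 lower in nicotine (background 15.7% and 19.0%). Hmgcs1 and Cyp51 joined Abcg1 among the members lower in DKO water, with rescaled log2 differences of -0.15 and -0.18. Cyp46a1 joined it among those lower in DKO nicotine, with -0.11.

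**Figure D2:**
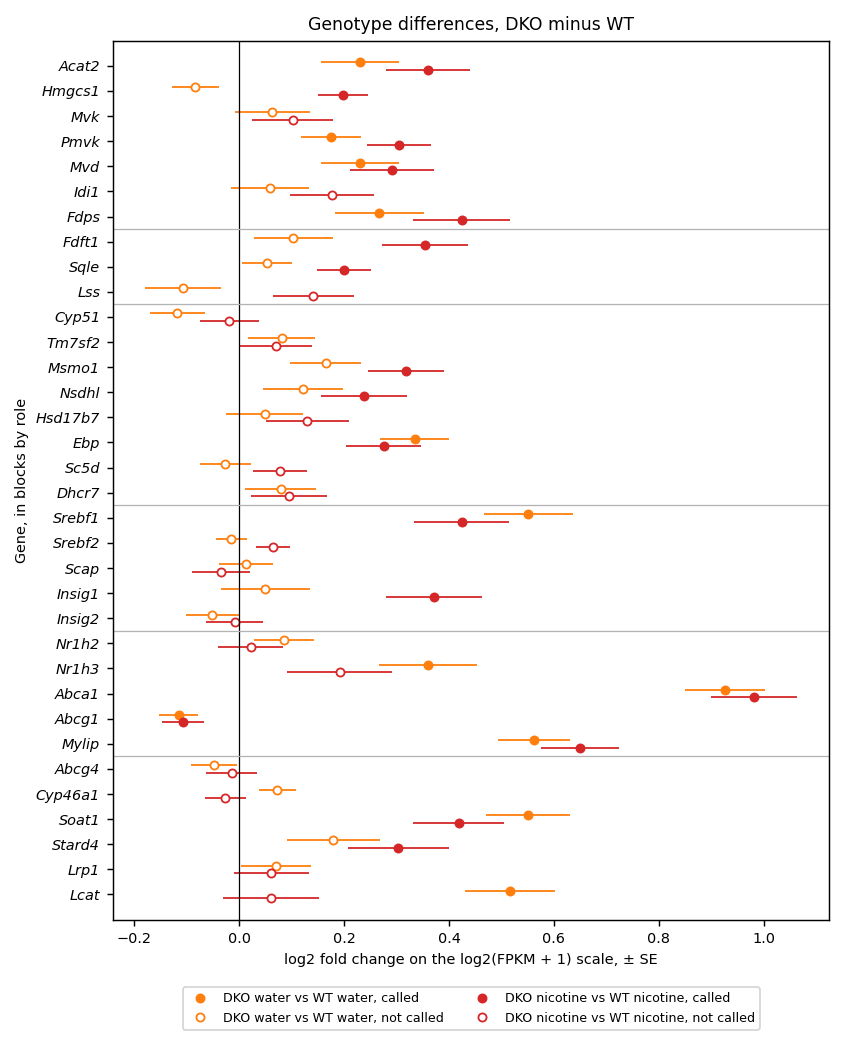
Log2 fold change, DKO minus WT, with its SE for each member (rows, in blocks by role) on the log2(FPKM + 1) scale, in water (orange) and in nicotine (red); filled points passed the test. Abca1 is farthest to the right in both comparisons, at 0.93 and 0.98, and Abcg1 is the only called member left of 0.

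The liver X receptor group held the largest genotype difference of all members. Abca1 (gene 11303, chromosome 4, 53030789 to 53159988 in GRCm38.p6) encodes the transporter that loads cholesterol and phospholipid onto lipid-poor apolipoproteins. It was at 4.56, 4.27, 4.37 and 4.9999 FPKM in WT water, 4.83, 3.84, 4.16 and 3.95 in WT nicotine, 8.50, 9.61, 9.95 and 10.1 in DKO water and 8.09, 10.4 and 9.33 in DKO nicotine. Every DKO library lay above every WT library, and the DKO mean was 2.10 times the WT mean in water and 2.21 times in nicotine. The log2 difference was 0.93 (SE 0.0761, limma adjusted p = 8.06e-08) in water and 0.98 (SE 0.0822, limma adjusted p = 1.27e-07) in nicotine.

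Mylip (gene 218203, chromosome 13, 45389742 to 45411940), the ubiquitin ligase that sends lipoprotein receptors to the lysosome, was the next largest. It was at 5.65, 5.44, 5.68 and 5.43 FPKM in WT water, 5.42, 5.58, 5.79 and 4.48 in WT nicotine, 7.72, 9.10, 8.91 and 9.01 in DKO water and 8.04, 9.57 and 9.08 in DKO nicotine. The genotypes did not overlap in either treatment, and the log2 difference was 0.56 (SE 0.0693, limma adjusted p = 7.88e-06) in water and 0.65 (SE 0.0748, limma adjusted p = 4.82e-06) in nicotine. Nr1h3 had 0.909, 1.18, 0.929 and 0.977 FPKM in WT water and 1.36, 2.001, 1.67 and 1.28 in DKO water, without overlap, and rose by 0.36 (SE 0.0929, limma adjusted p = 0.00571) on the log2 scale. In nicotine its groups overlapped, with 1.17, 1.06, 1.26 and 0.867 in WT and 1.63, 1.21 and 1.32 in DKO, and the difference of 0.19 did not pass (limma adjusted p = 0.149). The other receptor, Nr1h2 (liver X receptor beta), was at a mean of 22.4, 21.3, 23.8 and 21.6 FPKM in WT on water and on nicotine and in DKO on water and on nicotine and was called in no comparison.

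Abcg1 (gene 11307, chromosome 17, 31057694 to 31117984), a liver X receptor target that passes cholesterol to lipoprotein particles, went the other way. It was at 16.1, 15.7, 16.7 and 16.6 FPKM in WT water, 15.1, 15.8, 16.1 and 15.4 in WT nicotine, 15.2, 15.4, 14.5 and 14.7 in DKO water and 14.9, 13.95 and 14.4 in DKO nicotine. Within each treatment the DKO libraries were all below the WT libraries, but the gap was small, a log2 difference of -0.12 (SE 0.0371, limma adjusted p = 0.0212) in water and -0.11 (SE 0.0401, limma adjusted p = 0.0456) in nicotine. The call in water was lost without WT water replicate 3 or 4 or DKO water replicate 3 or 4 (limma adjusted p up to 0.0597). That in nicotine was lost under 12 of 23 alternatives (limma adjusted p up to 0.15), among them the omission of any library except WT water 2, WT nicotine 1, DKO water 1, DKO water 3 and DKO nicotine 1. Among the 5 genes of the group, 3 rose and 1 fell in water, and 2 rose and 1 fell in nicotine, beside 38.0% and 35.7% of all tested genes called in either direction.

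**Figure D3:**
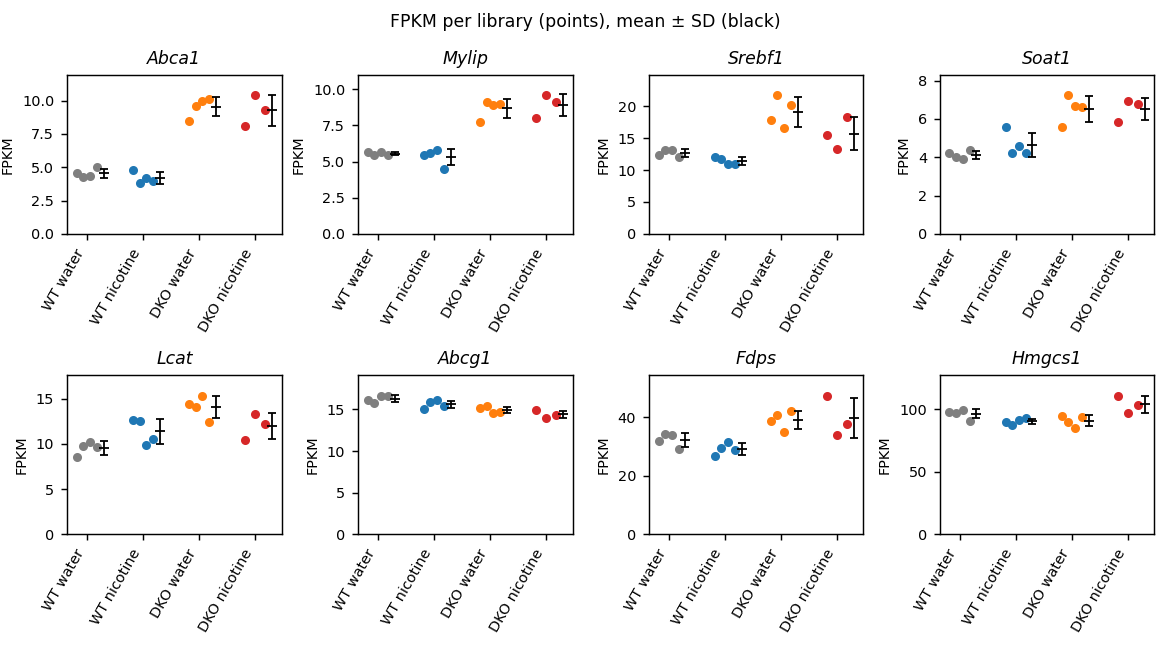
FPKM of 8 members in each library (points) with the group mean ± SD (black), axes from 0. For Abca1 and Mylip the DKO points lie apart above the WT points, Lcat overlaps between WT and DKO in nicotine, and Hmgcs1 is highest in DKO nicotine.

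In the SREBP group Srebf1 rose in both comparisons and Srebf2 in neither. Srebf1 (gene 20787, chromosome 11, 60199084 to 60224186) encodes SREBP1, whose isoforms act mainly on fatty acid genes, and its transcription is itself a target of the liver X receptors. It was at 12.3, 13.2, 13.2 and 12.01 FPKM in WT water, 12.1, 11.7, 10.9 and 10.9 in WT nicotine, 17.8, 21.7, 16.7 and 20.3 in DKO water and 15.5, 13.3 and 18.4 in DKO nicotine. DKO libraries lay above WT libraries of the same treatment, by 0.55 (SE 0.0843, limma adjusted p = 7.36e-05) in water and 0.42 (SE 0.0910, limma adjusted p = 0.00172) in nicotine on the log2 scale. A stretch of 109 exonic bases of Srebf1 is shared with Rai1 on the opposite strand, and whether counting used strand was not given in the sources used here.

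Srebf2, the SREBP most tied to cholesterol synthesis, was at 49.2, 50.4, 51.3 and 49.02 FPKM in WT water, 46.4, 46.7, 47.5 and 48.8 in WT nicotine, 48.96, 50.1, 48.2 and 50.6 in DKO water and 49.4, 49.4 and 49.9 in DKO nicotine. DKO water overlapped with WT water, and in nicotine the DKO libraries all lay above the WT ones. The log2 difference between genotypes was -0.01 in water (95% confidence interval -0.08 to 0.05) and 0.06 in nicotine (95% confidence interval -0.0036 to 0.13). Scap, the escort protein, had means of 23.6, 22.6, 23.8 and 21.98 FPKM in WT on water and on nicotine and in DKO on water and on nicotine and was called in no comparison.

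Insig1, which holds Scap back when sterol is high and is itself an SREBP target, was at 33.2, 31.7, 32.3 and 34.1 FPKM in WT water, 29.4, 31.5, 28.8 and 26.8 in WT nicotine, 32.2, 36.7, 30.7 and 36.7 in DKO water and 43.2, 30.7 and 40.9 in DKO nicotine. DKO nicotine replicates 1 and 3 were the highest of the 15 libraries, while replicate 2 lay within the WT nicotine range. In nicotine Insig1 rose by 0.37 (SE 0.0916, limma adjusted p = 0.00467) on the log2 scale although the groups overlapped, and in water the difference was 0.05 (95% confidence interval -0.13 to 0.23). Its relative Insig2 was at 14.5, 13.4, 14.9 and 14.1 FPKM in WT water, 12.9, 12.5, 12.6 and 13.2 in WT nicotine, 14.7, 13.3, 13.9 and 12.9 in DKO water and 13.3, 13.2 and 11.6 in DKO nicotine. Insig2 overlapped between genotypes in both treatments and was not called.

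Among the 18 enzymes of synthesis the largest differences were 0.33 (Ebp) in water and 0.42 (Fdps) in nicotine. In water 5 (27.8%) were called higher and 0 lower by limma, near the 25.5% of all tested genes called higher, and 7 had an unadjusted p under 0.05 (38.9%, against 46.4% of all tested genes). The median log2 difference in water was 0.08. In nicotine 10 (55.6%) were called higher and 0 lower, against 24.6% and 11.0% of all tested genes, and 11 had an unadjusted p under 0.05 (61.1%, against 45.2%), with a median of 0.20. After rescaling 1 was higher and 2 were lower in water (median 0.02), against 18.2% and 19.8% of all tested genes, and 7 were higher and 0 lower in nicotine (median 0.12), against 15.7% and 19.0%. Voom on recovered reads called 10 enzymes higher in nicotine. The mevalonate steps gave 4 of 7 higher in water and 5 of 7 in nicotine, squalene to lanosterol 0 of 3 and 2 of 3, and lanosterol to cholesterol 1 of 8 and 3 of 8, beside the same 25.5% and 24.6%. After rescaling the mevalonate steps gave 0 higher and 1 lower in water and 4 higher in nicotine.

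Among the mevalonate enzymes Fdps (gene 110196, chromosome 3, 89093588 to 89101967), which makes farnesyl diphosphate, had the largest differences. It was at 31.9, 34.2, 34.1 and 29.1 FPKM in WT water, 26.7, 29.6, 31.5 and 28.9 in WT nicotine, 38.7, 40.7, 34.9 and 42.2 in DKO water and 47.5, 34.1 and 37.9 in DKO nicotine. DKO libraries lay above WT libraries of the same treatment, and DKO nicotine replicate 1 was the highest of all. The log2 difference was 0.27 (SE 0.0849, limma adjusted p = 0.0202) in water and 0.42 (SE 0.0917, limma adjusted p = 0.00182) in nicotine. Exons of Fdps share 197 bases with another gene model on the same strand. The thiolase Acat2, the phosphomevalonate kinase Pmvk and the decarboxylase Mvd rose in water by 0.23, 0.17 and 0.23 and in nicotine by 0.36, 0.30 and 0.29. The water calls of Acat2, Pmvk, Mvd and Fdps were lost under rescaling and without DKO water replicate 2, with limma adjusted p up to 0.0826, 0.11, 0.0788 and 0.0723. They were also lost without WT water replicate 4 (Acat2, Pmvk and Fdps), DKO water replicate 1 (Acat2, Pmvk and Mvd) or DKO water replicate 4 (Mvd and Fdps). Without DKO water replicate 2, 7 members rose in water in place of 11. Over all genes 2706 of 12698 were then called higher, in place of 3252 of 12728. The mevalonate kinase Mvk and the isomerase Idi1 passed in neither comparison, with log2 differences of 0.06 and 0.06 in water and 0.10 and 0.18 in nicotine.

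Hmgcs1 (gene 208715, chromosome 13, 119690351 to 119708260), the most abundant member per length, has the sterol regulatory element shown above. It was at 97.8, 97.3, 99.4 and 91.1 FPKM in WT water, 89.95, 87.9, 91.6 and 92.8 in WT nicotine, 95.01, 90.1, 84.9 and 93.9 in DKO water and 111, 97.3 and 104 in DKO nicotine. DKO nicotine was the group with the highest libraries, and its lowest library lay within the WT water range. In water the difference between genotypes was -0.08 (95% confidence interval -0.18 to 0.01) and did not pass as deposited. In nicotine it rose in the DKO by 0.20 (SE 0.0478, limma adjusted p = 0.00412) on the log2 scale, a call lost under rescaling, where the difference was 0.12 (limma adjusted p = 0.0524). Exons of Hmgcs1 share 458 bases with another gene model on the opposite strand.

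Of the squalene steps, Fdft1, the squalene synthase, was at 16.8, 17.9, 17.998 and 18.1 FPKM in WT water, 16.8, 17.1, 17.3 and 17.8 in WT nicotine, 20.7, 18.99, 17.1 and 19.7 in DKO water and 27.3, 19.7 and 20.7 in DKO nicotine. It rose in nicotine by 0.35 (SE 0.0820, limma adjusted p = 0.00304) without overlap of the groups, DKO nicotine replicate 1 standing well above replicates 2 and 3. The difference in water was 0.10 (95% confidence interval -0.06 to 0.26). Fdft1 shares 774 exonic bases with Ctsb on the opposite strand. Ctsb, a lysosomal protease, rose from a mean of 149 to 204 FPKM in water and from 151 to 197 in nicotine, and its part in the Fdft1 value was not tested.

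The squalene epoxidase Sqle was at 24.3, 24.5, 23.5 and 25.2 FPKM in WT water, 24.1, 24.5, 24.3 and 25.3 in WT nicotine, 25.6, 24.6, 23.9 and 27.2 in DKO water and 30.4, 26.1 and 28.7 in DKO nicotine. It rose in nicotine by 0.20 (SE 0.0511, limma adjusted p = 0.00588), without overlap, a call lost under rescaling. The lanosterol synthase Lss was at 5.87, 5.84, 7.01 and 7.22 FPKM in WT water, 6.58, 6.02, 6.80 and 6.18 in WT nicotine, 5.34, 6.27, 5.65 and 6.49 in DKO water and 7.60, 6.65 and 7.24 in DKO nicotine. Its genotype differences were -0.11 in water and 0.14 in nicotine, with overlap in both, and did not pass.

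Of the steps from lanosterol to cholesterol, Ebp, the X-linked sterol isomerase, was called in both comparisons under every alternative tried. It was at 9.15, 9.32, 9.64 and 7.73 FPKM in WT water, 8.61, 8.65, 9.91 and 8.98 in WT nicotine, 11.9, 11.2, 12.6 and 10.4 in DKO water and 10.9, 10.9 and 11.6 in DKO nicotine. DKO libraries lay above WT libraries of the same treatment, by 0.33 (SE 0.0661, limma adjusted p = 0.000776) in water and 0.28 (SE 0.0714, limma adjusted p = 0.00647) in nicotine. Msmo1 rose in nicotine by 0.32 (SE 0.0727, limma adjusted p = 0.00271), and its difference in water of 0.16 did not pass (limma adjusted p = 0.0636). Nsdhl, the next dehydrogenase in line, rose in nicotine by 0.24 (SE 0.0826, limma adjusted p = 0.0337), a call lost under 7 of 23 alternatives, among them without WT nicotine replicate 3 or 4 or DKO nicotine replicate 1 (limma adjusted p up to 0.237). Cyp51, the lanosterol demethylase, was at a mean of 15.99 FPKM in WT water and 14.7 in DKO water without overlap of the libraries, and its log2 difference of -0.12 did not pass (limma adjusted p = 0.0874). The reductases Tm7sf2, Hsd17b7 and Dhcr7 and the desaturase Sc5d were called in neither comparison, with log2 differences from -0.03 to 0.08 in water and 0.07 to 0.13 in nicotine.

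Across the enzymes 1 library stood apart. The mean ratio of the 18 enzymes to their WT water means was 0.995, 0.997, 1.03 and 0.979 in WT water, 1.01, 1.00, 1.03 and 1.00 in WT nicotine, 1.11, 1.09, 1.01 and 1.10 in DKO water and 1.30, 1.09 and 1.17 in DKO nicotine. DKO nicotine replicate 1 held the highest value of 15 libraries for 15 of 18 enzymes (14 after rescaling, where its ratio was 1.22). Within DKO water, replicate 3 was lowest for 12 of the 18. The summed level of 7 striatal markers, a check on the dissection, was also lowest there, at 213 FPKM against 293 to 361 in the rest of its group, as was that of 6 inhibitory neuron markers, at 583 against 641 to 724. In DKO nicotine, replicate 2 was lowest in both, at 175 FPKM against 249.9 to 252 for striatal and 512 against 625 to 677 for inhibitory markers. Its oligodendrocyte sum was also the lowest, at 951 against 1097 and 1099, but in DKO water that sum was lowest in replicate 1 (1045, with 1119 in replicate 3). Microglial, astrocyte and excitatory neuron sums were highest within their groups in DKO water replicate 3 and DKO nicotine replicate 2. The part of these markers in the enzyme values was not tested. Without DKO nicotine replicate 1, 8 enzymes rose in nicotine in place of 10, with a median of 0.14 in place of 0.20, and 13 members in place of 16. Mvd, Nsdhl and Stard4 were the calls lost. Over all genes 2607 of 12691 were then called higher, in place of 3133 of 12728. Without replicate 2, the DKO nicotine library with a Y-linked sum near 0, 12 enzymes and 18 members rose, beside 3062 of 12706 genes. The DKO nicotine libraries left had Y-linked sums of 35.9 and 36.6 FPKM, against 0.0909 to 0.144 in WT nicotine. Genotype and the Y-linked level then cannot be told apart.

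**Figure D4:**
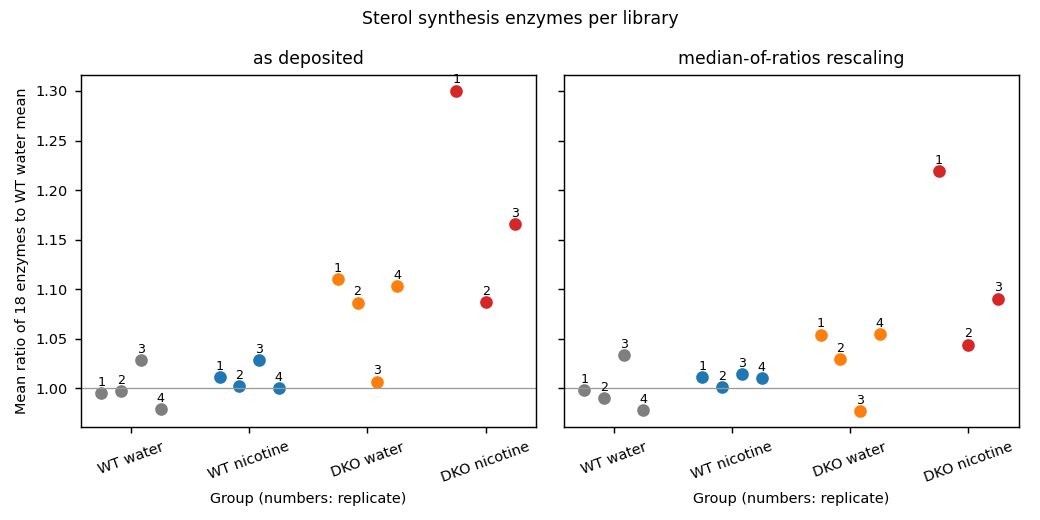
Mean ratio of the 18 synthesis enzymes to their WT water means in each library (points, numbered by replicate), as deposited (left) and after median-of-ratios rescaling (right). DKO nicotine replicate 1 is highest at 1.30 and 1.22, and replicate 2 at 1.09 lies within the range of the DKO water libraries.

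Among the genes of efflux, storage, turnover and transport, Soat1 (gene 20652, chromosome 1, 156428108 to 156474328), which esterifies cholesterol for storage in lipid droplets, rose in both comparisons. It was at 4.23, 4.03, 3.89 and 4.36 FPKM in WT water, 5.57, 4.23, 4.57 and 4.21 in WT nicotine, 5.58, 7.23, 6.68 and 6.63 in DKO water and 5.86, 6.94 and 6.78 in DKO nicotine. DKO libraries lay above WT libraries of the same treatment, with WT nicotine replicate 1 nearly reaching the lowest of them. The log2 difference was 0.55 (SE 0.0802, limma adjusted p = 4.51e-05) in water and 0.42 (SE 0.0867, limma adjusted p = 0.00130) in nicotine.

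Lcat (gene 16816, chromosome 8, 105939551 to 105943402), a secreted enzyme that esterifies cholesterol on lipoproteins and is made by astrocytes in the brain, was at 8.52, 9.73, 10.3 and 9.65 FPKM in WT water, 12.6, 12.6, 9.92 and 10.6 in WT nicotine, 14.5, 14.1, 15.3 and 12.5 in DKO water and 10.4, 13.3 and 12.1 in DKO nicotine. In water every DKO library lay above every WT library, and in nicotine the groups overlapped. It rose in water by 0.52 (SE 0.0849, limma adjusted p = 0.000148) on the log2 scale, and the nicotine difference was 0.06 (95% confidence interval -0.13 to 0.25). Stard4, a cytosolic sterol carrier, rose in nicotine by 0.30 (SE 0.0961, limma adjusted p = 0.0215), a call lost under rescaling and without WT nicotine replicate 4 or DKO nicotine replicate 1 (limma adjusted p up to 0.154). Its water difference of 0.18 did not pass.

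Cyp46a1 was at 76.9, 81.8, 77.3 and 77.4 FPKM in WT water, 77.8, 80.1, 83.3 and 77.9 in WT nicotine, 85.5, 80.8, 83.96 and 79.5 in DKO water and 78.004, 81.3 and 75.7 in DKO nicotine. The groups overlapped throughout, and the log2 difference was 0.07 (95% confidence interval -0.0032 to 0.15) in water and -0.03 (95% confidence interval -0.11 to 0.06) in nicotine. Abcg4, a neuronal and glial relative of Abcg1, had means of 15.4, 15.001, 14.9 and 14.8 FPKM in the 4 groups in the same order, and Lrp1 of 44.9, 44.1, 47.2 and 46.3. Both were called in no comparison.

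The comparison of nicotine with water within WT mice gave 0 called members in limma, against 0.173% of all tested genes, and 0 by voom on recovered reads. At an unadjusted p under 0.05 there were 3 members and 1107 of 12728 genes. These 3 were Insig2, at -0.14 on the log2 scale (95% confidence interval -0.25 to -0.03, limma adjusted p = 0.446), Lcat at 0.23 (95% confidence interval 0.05 to 0.41, limma adjusted p = 0.459) and Srebf2 at -0.08 (95% confidence interval -0.14 to -0.01, limma adjusted p = 0.491). The groups did not overlap for 3 members, Insig1, Insig2 and Srebf2, each lower in WT nicotine, against 5.8% of all tested genes. The median member difference was -0.02, and all genes had a median of 0.00.

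Within DKO mice nicotine against water likewise gave 0 called members in limma, against 0.157% of all tested genes, and 0 by voom. At an unadjusted p under 0.05 there were 13 members (38.2%) and 1765 genes (13.9%), and 10 of the 13 were synthesis enzymes. The smallest p belonged to Hmgcs1, at 0.19 on the log2 scale (95% confidence interval 0.09 to 0.29, limma adjusted p = 0.114), with every DKO nicotine library above every DKO water library. Sqle was at 0.16 (95% confidence interval 0.05 to 0.27, limma adjusted p = 0.203) and Lss at 0.24 (95% confidence interval 0.07 to 0.40, limma adjusted p = 0.207). Srebf1 had a negative value, -0.27 (95% confidence interval -0.46 to -0.08, limma adjusted p = 0.220), while Abca1, Mylip and Soat1 were at -0.04, 0.03 and 0.00. Only Hmgcs1 and Lss had groups without overlap, 2 members against 10.9% of all tested genes. The median over the enzymes was 0.14, over all members 0.04 and over all tested genes 0.01. Without DKO nicotine replicate 1 the enzyme median was 0.07 and 2 enzymes had an unadjusted p under 0.05. Without DKO water replicate 3 the values were 0.11 and 5, and without DKO nicotine replicate 2 they were 0.21 and 12. Without any other library of these groups they were 0.14 to 0.16 and 9 to 10. The Y-linked sum was 0.233 FPKM in DKO nicotine replicate 2 and 24.3 to 36.6 in the other DKO libraries. This comparison therefore mixes Y-linked levels, and their part in it was not tested.

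Whether nicotine acted differently in the genotypes was tested as the interaction, the DKO nicotine effect minus the WT nicotine effect. The interaction contains the WT nicotine effect, so it cannot be told apart from the Y-linked level given above. It gave 0 called members in limma, against 0.0157% of all tested genes, and 0 by voom, with 6 members and 878 genes at an unadjusted p under 0.05. Hmgcs1 had the smallest p, at 0.28 on the log2 scale (95% confidence interval 0.14 to 0.42, limma adjusted p = 0.481). Lcat was at -0.46 (95% confidence interval -0.72 to -0.19, limma adjusted p = 0.576) and Insig1 at 0.32 (95% confidence interval 0.06 to 0.59, limma adjusted p = 0.663). The remaining members of the 6 were the squalene enzymes Lss, Fdft1 and Sqle, at 0.25, 0.25 and 0.15. Of the 6, 4 were enzymes (Hmgcs1 and these 3), and the median of all 18 enzymes was 0.12. That count rested on single libraries: with 1 library left out at a time it was 1 to 7, at 1 without DKO nicotine replicate 1 (median 0.05), DKO water replicate 3 (median 0.09) or WT nicotine replicate 2, and 7 without DKO nicotine replicate 2 (median 0.17). It was 2 without DKO nicotine replicate 3, DKO water replicate 1 or 2, WT nicotine replicate 1 or 3, or WT water replicate 2, 3 or 4. For Abca1 the interaction was 0.06 (95% confidence interval -0.18 to 0.29), and for Mylip 0.09 (95% confidence interval -0.13 to 0.30).

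Other genes of the pathway were followed as lists, whose counts stand beside 25.5% of all tested genes called higher and 12.4% lower in water, and 24.6% and 11.0% in nicotine. Lipoprotein carriers and receptors gave 8 of 10 tested genes higher and 1 lower in water, and 6 higher and 0 lower in nicotine. Among them Apoe, the main apolipoprotein of brain, went from a mean of 753 FPKM in WT water to 2317 in DKO water, a log2 difference of 1.62 (SE 0.0571, limma adjusted p = 2.33e-12), and Clu, another astrocyte apolipoprotein, from 331 to 620, with 0.90 (SE 0.0487, limma adjusted p = 4.31e-10). Genes of intracellular sterol transport gave 6 of 11 higher in each treatment and 1 lower in nicotine, led by Npc2, a lysosomal carrier of free cholesterol, and Lipa, the lysosomal lipase that releases it. In water the log2 difference was 1.03 (SE 0.0393, limma adjusted p = 5.71e-12) for Npc2 and 0.63 (SE 0.0701, limma adjusted p = 2.65e-06) for Lipa. The 5 oxysterol and bile acid enzymes gave 4 higher and 1 lower in water, with Hsd3b7 at 0.59 and Cyp39a1 at -0.48 on the log2 scale, and 2 higher and 1 lower in nicotine. Cyp39a1 was at 0.727 to 1.36 FPKM in WT and 0.429 to 0.721 in DKO libraries. Ch25h, among those higher in water, was at 0.196 to 0.900 and 0.537 to 1.79. Each reached 1 FPKM only in the genotype where it was higher and passed the filter through that genotype alone. The calls of Ch25h and Cyp39a1 are therefore description only.

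Lists closer to synthesis gave the following counts, to be set beside the same 25.5% and 12.4% in water and 24.6% and 11.0% in nicotine. Of 11 fatty acid genes 5 rose and 1 fell in water and 4 rose in nicotine, among them the elongase Elovl5 (0.55 and 0.46) and the desaturase Fads2 (0.34 and 0.25), and the gene that fell was the desaturase Scd1 (-0.20). Of 10 genes of SREBP cleavage and sterol-regulated degradation 4 rose in each treatment, including the ubiquitin ligase Rnf145 (0.20 and 0.30). Of 11 genes of the isoprenoid branch 2 rose in each, including the prenyltransferase subunit Fnta (0.26 and 0.14). After rescaling the isoprenoid genes gave 1 higher and 3 lower in water and 0 in either direction in nicotine, and the intracellular transport genes 4 higher and 3 lower in water, beside 18.2% higher and 19.8% lower over all tested genes in water and 15.7% and 19.0% in nicotine.

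Cell type markers moved beside these differences, with the shares over all tested genes as above (25.5% higher and 12.4% lower in water, 24.6% and 11.0% in nicotine). In water all 10 microglial markers and 9 of 10 astrocyte markers rose, and in nicotine 8 and 7 did. The microglial receptor Clec7a differed by 3.97 and the astrocyte filament Gfap by 3.71 on the log2 scale in water, against 0.93 for Abca1. Of 10 oligodendrocyte markers, which belong to the cells that make myelin, 5 rose in each treatment. Of 8 excitatory neuron markers 5 fell in each, and 1 rose in nicotine. All 6 inhibitory neuron markers, 4 of 8 endothelial and 4 of 7 striatal markers rose in water, and 3, 2 and 0 in nicotine, while 0 of 4 oligodendrocyte precursor markers were called in either. Within the DKO, where nicotine and water groups had microglial sums of 491 to 574 and 515 to 608 FPKM, limma called no marker of the 8 cell type and striatal lists. At an unadjusted p under 0.05 the lists had 0 to 4 markers each, the most in the striatal list (4 of 7, median log2 difference of the list -0.50). Of all tested genes 13.9% had such a p in this comparison.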

How the data were processed

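The authors deposited 1 table of FPKM values per library. TRIzol RNA went into TruSeq Stranded mRNA libraries, per the labels' protocols. Per the submitters' processing notes, the genome build was GRCm38.p6. How reads were aligned and counted, and whether strand was used, were not given in the sources used here. The design named a count test for counts and limma for FPKM, and limma 3.58.1 (R 4.3.3) was used. It was run with an intensity trend on log2(FPKM + 1), in a single fit of the 15 libraries with 1 term for each group and no replicate block. Genes needed at least 1 FPKM in at least 3 libraries, which left 12728. Benjamini-Hochberg adjustment was made over all tested genes within each of 5 comparisons. Confidence intervals use the moderated degrees of freedom. FPKM steps gave whole reads for 100% of tested genes within 0.02 reads. Functions were tested on simulated data.

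The members and lists were chosen with earlier results of these data known. Values in every library are given for the 4 largest called differences per comparison and direction, the 3 members with the smallest p where none was called, and Hmgcs1, Srebf2, Srebf1, Abca1 and Cyp46a1. Ebp, Fdft1 and Nr1h3 were added after their values were seen, as were other members described by mean. Listed genes named are up to 2 per list with the smallest p, and Scd1, which was singled out later. Exon overlaps came from GENCODE M21. Of the 34 members 9 overlapped another gene in exons, 7 on the opposite strand and 2 on the same strand. Besides Srebf1, Fdft1 and Fdps these were Hmgcs1 (458 bases), Idi1 (323), Scap (221), Cyp51 (166), Lss (150) and Tm7sf2 (14, same strand). The part of these overlaps in the values was not tested. Alternatives were median-of-ratios rescaling, a pseudocount of 0.1, no filter, a filter at 5 FPKM, no trend, only the groups compared, a replicate block and leaving out each library. Voom on recovered reads was added after seeing the data.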

Additional observations from a re-analysis of the deposited data

Results flagged for a closer look

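In the groups of 4 libraries, the highest or lowest library of each member was compared with the rest by Dixon's test at 95%. Of 102 such groups 5 stood out, and chance gives about 1 in 20. Pmvk was at 16.4 FPKM in WT water replicate 4, below 18.01 to 18.18 in the other libraries of its group. Fdft1 was at 16.8 FPKM in WT water replicate 1, against 17.9 to 18.1. Nsdhl was at 13.01 FPKM in WT water replicate 3, above 11.1 to 11.2. Mylip was at 7.72 FPKM in DKO water replicate 1, below 8.91 to 9.10 but still above every WT library. Cyp46a1 was at 81.8 FPKM in WT water replicate 2, above 76.9 to 77.4. The DKO nicotine group, with 3 libraries, was not tested this way.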

How the results depend on the processing

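Of the 29 called member values, 18 kept the call under every one of 22 to 23 alternatives, 11 lost it under at least 1, and 0 reversed. Those kept were Ebp, Srebf1, Nr1h3, Abca1, Mylip, Soat1 and Lcat in water, and Acat2, Pmvk, Fdps, Fdft1, Msmo1, Ebp, Srebf1, Insig1, Abca1, Mylip and Soat1 in nicotine. Nr1h3 could not be tested at the 5 FPKM filter. Leaving out a library outside a comparison does not change its log2 differences. It changes only the shared estimate of the spread and the genes tested, so these alternatives ask less of a call. Higher members in water went from 11 to 7 with median-of-ratios rescaling. Lower members went from 1 to 3 (water) and 2 (nicotine) with rescaling, and to 2 (water) and 0 (nicotine) with only the groups compared. Leaving out single libraries gave 7 to 13 higher and 0 to 2 lower members in water, and 13 to 18 higher and 0 to 1 lower in nicotine. The counts over all 12686 to 12722 genes tested then were 2706 to 3319 higher and 1357 to 1613 lower in water. In nicotine they were 2360 to 3116 higher and 1069 to 1408 lower. Over all genes, DKO nicotine against DKO water gave 13 higher and 7 lower calls as reported, 72 and 16 with voom and 0 and 0 with only the groups compared. The cause was not tested.

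Libraries with the same replicate number did not deviate together: the correlation over 21 such pairs had a median of -0.0089 (range -0.21 to 0.16), 2 pairs were over 0.1, and 2 of 15 libraries correlated best with their own number. With the replicate number as a block, 11 members rose and 1 fell in water, and 15 rose and 0 fell in nicotine. Of all 12728 tested genes 3113 rose and 1507 fell in water, and 2727 rose and 1253 fell in nicotine. Precision is limited by 3 to 4 libraries per group.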
